A study of Mus musculus with 29 samples.

Results

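MHC class II presentation was followed through 10 genes, H2-Aa, H2-Ab1, H2-Eb1, Cd74, H2-DMa, H2-DMb1, H2-DMb2, H2-Oa, H2-Ob and Ciita, taken by symbol out of the 23930 genes measured in splenic and hepatic macrophages of wild-type and Rnaset2-/- mice. All 10 genes had a row in the expression table, and all 10 passed the filter on low values in every comparison. The 29 RNA-seq libraries came from FACS-sorted cells of C57BL/6 mice, and Rnaset2-/- denotes the combined loss of Rnaset2a and Rnaset2b, the pair of genes that encode the endosomal ribonuclease RNase T2 in the mouse. In the spleen there were 3 wild-type and 3 Rnaset2-/- libraries of Ly6Chi macrophages, and 3 wild-type and 4 Rnaset2-/- libraries of Ly6Clow macrophages. In the liver there were 3 libraries of each genotype for Ly6Chi and for Ly6Clow macrophages, and 4 libraries of Kupffer cells (KCs), the resident macrophages of the liver sinusoids, from wild-type mice alone. By the labels, Ly6Chi and Ly6Clow cells of both organs were gated as CD11b+ and negative for Ly6G, SiglecF and NK1.1, with Fcgr4 required in addition for Ly6Clow cells, and KCs were gated as F4/80+, CD11b intermediate, Tim4+ and PDCA-1 low. The methods of the study describe the liver sort otherwise, with F4/80 and the level of CD11b separating macrophages from KCs, without Tim4 for KCs and without naming Ly6G, SiglecF or NK1.1 there. Spleens were minced between glass slides and depleted of cells bearing lineage markers that included CD3, NK1.1, Ly6G and TER-119, whereas livers were minced and run in a heated tissue dissociator, so that organ and dissociation cannot be told apart.

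MHC class II molecules carry peptides from endosomes to the cell surface and show them to CD4+ T cells. The alpha and beta chains pair in the endoplasmic reticulum with the invariant chain Cd74, which fills the groove and sends the complex to late endosomes, where the H2-M heterodimer removes its last fragment and helps peptides to load. H2-O is a second heterodimer that binds H2-M and restrains it, and it is known mainly from B cells, thymic epithelium and some dendritic cells. Ciita is the transactivator that sets the transcription of the whole group: it binds no DNA itself, and is held on the promoters by RFX and NF-Y, which sit on the X and Y boxes. Macrophages carry moderate and inducible amounts of class II, and B cells and conventional dendritic cells (cDCs) carry large and constitutive amounts.

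The members fall into 4 roles. H2-Aa and H2-Ab1 encode the alpha and beta chains of I-A, the class II molecule that C57BL/6 mice display. H2-Eb1 encodes the beta chain of I-E, whose alpha chain is not made in this strain. H2-DMa, H2-DMb1 and H2-DMb2 encode the alpha chain and the alternative beta chains of H2-M, and H2-Oa and H2-Ob encode the chains of H2-O. In GENCODE vM21 (GRCm38) the 8 H2 genes lie within 224335 bases of chromosome 17, from 34092340 to 34316674, while Ciita lies on chromosome 16 from 10480059 to 10528418.

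The promoters of H2-Aa and H2-Eb1, for the chains, and of H2-DMb2, H2-Oa and H2-Ob, which were called most often when genotype effects were compared between organs and subsets, are given as RefSeq gives them on GRCm38.p6, to let a reader see the boxes through which Ciita acts. Each run is written in the direction of transcription and ends upstream of the start site. Capitals mark a match to the Y box (TGATTGG) and to the X box, searched as AACNNATG or, where that was missing, as its shorter form GCAAC.
H2-Aa, chr17:34287824-34287963, minus strand: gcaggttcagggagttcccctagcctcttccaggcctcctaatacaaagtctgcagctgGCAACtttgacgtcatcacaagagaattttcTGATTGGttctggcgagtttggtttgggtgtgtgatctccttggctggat
H2-Eb1, chr17:34305727-34305866, plus strand: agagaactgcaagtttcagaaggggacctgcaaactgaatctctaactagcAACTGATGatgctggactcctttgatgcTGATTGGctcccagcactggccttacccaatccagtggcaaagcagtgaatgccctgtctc
H2-DMb2, chr17:34145109-34145235, plus strand: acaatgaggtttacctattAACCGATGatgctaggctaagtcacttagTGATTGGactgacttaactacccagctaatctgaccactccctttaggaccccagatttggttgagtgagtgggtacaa
H2-Oa, chr17:34092239-34092340, plus strand: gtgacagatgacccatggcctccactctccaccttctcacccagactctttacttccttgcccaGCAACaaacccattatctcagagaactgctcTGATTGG
H2-Ob, chr17:34238765-34238902, plus strand: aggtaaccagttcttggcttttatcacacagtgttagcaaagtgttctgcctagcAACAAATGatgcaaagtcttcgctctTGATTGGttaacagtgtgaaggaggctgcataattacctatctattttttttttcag
In H2-Eb1, H2-DMb2 and H2-Ob the X box lay 89, 121 and 85 bases before the start site, with 20, 21 and 18 bases between it and the Y box. H2-Aa and H2-Oa held the shorter GCAAC at 81 and 76 bases before the start, each with 26 bases to the Y box, and H2-DMb1 held the full X box at 92 bases with 21 bases to the Y box.

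Both boxes were searched on both strands in the 250 bases upstream of 32851 RefSeq start sites. The Y box was present at 7.23% of them, the X box at 7.71% and GCAAC at 29.9%. An X box followed by a Y box after 15 to 45 bases was present at 0.0517%, and GCAAC followed by a Y box in the same range at 0.256%. The H2-Eb1 and H2-Ob runs also hold GCAAC, which overlaps the X box there. Neither the full X box nor the Y box matched in the windows of the 2 H2-DMa start sites. These matches describe letters in a window and were not measured as sites. The promoters of H2-Ab1, Cd74 and Ciita were not analysed here.

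Libraries held 11175843 to 21167602 reads (median 13027220), so that 3 reads corresponded to 0.142 to 0.268 RPM (reads per gene, brought to a common total), far under the level of every member in every library. The chemistry counts reads of 1 amplified stretch per gene, and levels are therefore compared between samples and not between genes. H2-DMb1 and H2-DMb2 are near copies, with 1182 of 1246 aligned bases identical (94.9%) between their reference transcripts, and reads could be split between them. The libraries carried their labels' markers in the main: Csf1r, the receptor that macrophages need for survival, was between 665 and 2178 RPM in all 29 libraries, and Clec4f, a KC marker, was between 1674 and 5471 RPM in KCs and at most 63.3 RPM elsewhere. Rnaset2-/- hepatic Ly6Chi libraries departed in part from wild-type cells of their label. Fcgr4, a marker of the Ly6Clow gate, was 445 to 1021 RPM there. It was 74.6 to 88.3 RPM in wild-type hepatic Ly6Chi and 398 to 501 RPM in wild-type hepatic Ly6Clow libraries. Markers of Ly6C-high monocytes summed to 1064 to 1671 RPM against 2968 to 3348 RPM in wild-type. Rnaset2-/- hepatic Ly6Clow libraries had 2577 to 4451 RPM of Fcgr4 and a Ly6C-high monocyte sum of 34.6 to 247 RPM. Within Rnaset2-/- livers the subsets thus kept the order of their labels. Fcgr4 was higher than in wild-type in Rnaset2-/- splenic Ly6Chi (112 to 157 against 32.1 to 40.6 RPM) and Ly6Clow macrophages (3231 to 4635 against 769 to 821 RPM) too. The labels do not say whether replicates were separate animals, so p-values measure only the spread between these samples.

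Some libraries stood apart in the values below. In Rnaset2-/- livers, replicate 1 of both the Ly6Chi and the Ly6Clow macrophages held several times more RNA of the chains, Cd74 and Ciita than replicates 2 and 3, and in Rnaset2-/- spleens, replicate 2 of the Ly6Clow macrophages held more RNA of most members than replicates 1, 3 and 4. That splenic library was also the only one of its group with RNA of the Y-linked gene Ddx3y (162.9 RPM, against at most 0.071 RPM) and without RNA of Xist, which silences an X chromosome in females (0.781 RPM, against 611 to 744 RPM). All 6 Rnaset2-/- liver libraries had 83.4 to 156 RPM of Ddx3y and at most 0.154 RPM of Xist. The 6 wild-type Ly6Chi and Ly6Clow liver libraries had 321 to 539 RPM of Xist, with Ddx3y from 0 to 29.7 RPM. Wild-type splenic libraries had 476 to 695 RPM of Xist and no Ddx3y. The 3 Rnaset2-/- splenic Ly6Chi libraries had 353 to 447 RPM of Xist and no Ddx3y, and KCs 647 to 949 RPM of Xist and no Ddx3y. Sex thus cannot be told apart from genotype in the liver, from organ in Rnaset2-/- Ly6Chi macrophages, or from the cells compared when Rnaset2-/- hepatic macrophages are set against KCs, and in Ly6Clow macrophages of Rnaset2-/- mice it differed between the organs for all but splenic replicate 2. Among wild-type cells, Ddx3y was present in some hepatic Ly6Chi and Ly6Clow libraries but not in splenic libraries or KCs. Sex may therefore differ in part between those groups too. The members' comparisons that rest on one of these libraries are given with and without it, and for the gene lists the counts without it follow.

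**Figure D1:**
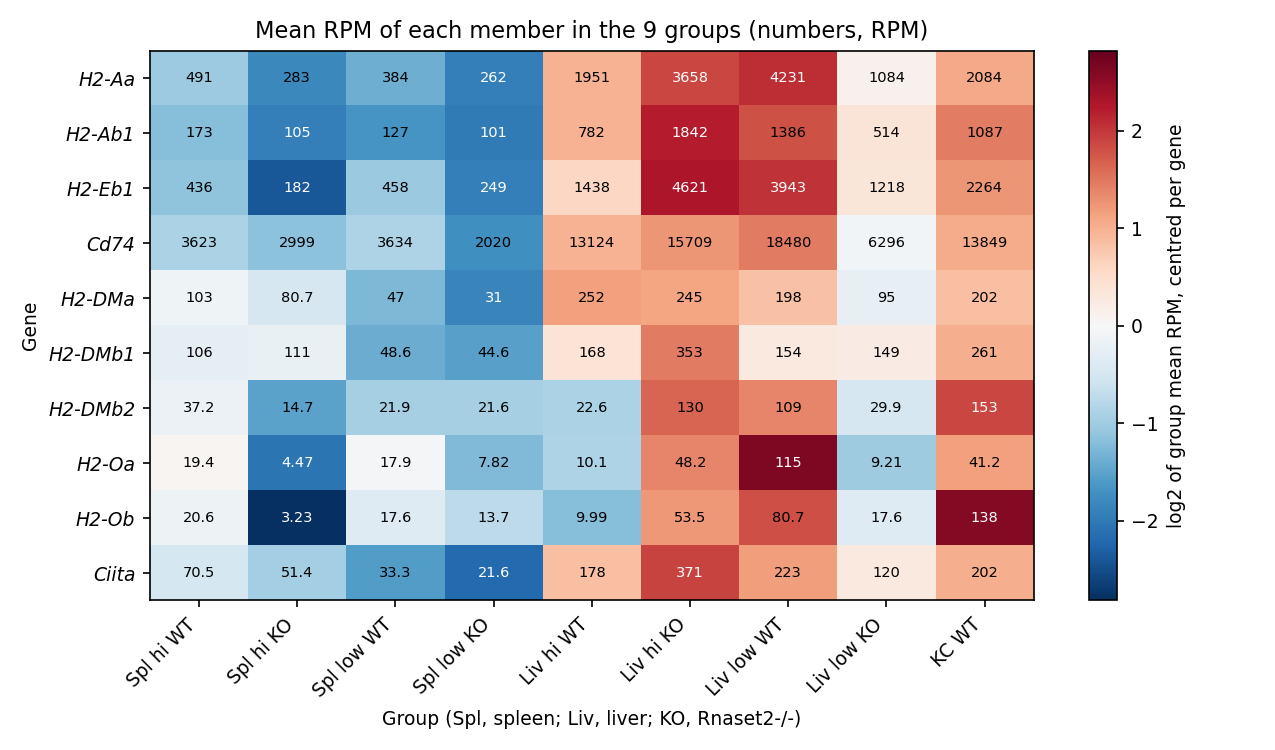
Mean RPM of the 10 class II genes in the 9 groups of organ, subset and genotype, with color showing log2(mean RPM) for each gene relative to its own average over the groups. Wild-type hepatic macrophages and KCs were above the splenic groups for the I-A and I-E chains and Cd74, and the H2-O chains and H2-DMb2 ranked the groups differently.

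Among wild-type cells the class II chains were low in the spleen and high in the liver. H2-Aa measured 497, 465 and 511 RPM in splenic Ly6Chi and 353, 409 and 390 RPM in splenic Ly6Clow macrophages. In the liver it measured 2134, 1764 and 1955 RPM in Ly6Chi, 3615, 4801 and 4277 RPM in Ly6Clow macrophages, and 2158, 1745, 2081 and 2352 RPM in KCs. Every hepatic library was above every splenic library, and Ly6Clow macrophages were the highest of the hepatic groups with no overlap. H2-Ab1 measured 112 to 182 RPM over the 6 wild-type splenic libraries and 759 to 1706 RPM over the 10 wild-type hepatic ones. H2-Eb1 measured 403 to 509 RPM in the spleen, 1357, 1798 and 1161 RPM in hepatic Ly6Chi, 3930, 4295 and 3604 RPM in hepatic Ly6Clow macrophages, and 1848 to 2567 RPM in KCs. Cd74 followed the same order of organs, with 3460 to 3771 RPM in the spleen and 10837 to 21424 RPM in the liver.

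Between wild-type organs, all 10 genes were higher in hepatic than in splenic Ly6Clow macrophages, where 18.8% of all tested genes were higher (>1.5-fold, adjusted p below 0.05). On the log2(scaled RPM + 1) scale, on which all differences and standard errors (SE) below are given, H2-Aa rose by 3.49 ± 0.15 and H2-Ab1 by 3.45 ± 0.20 (adjusted p 5.23e-07 and 2.22e-06). The smallest of the 10 differences was that of H2-DMb1, 1.72 ± 0.18 (adjusted p 8.46e-05). Ciita rose by 2.75 ± 0.15 (adjusted p 1.4e-06), from 29.8, 38.3 and 31.7 RPM in the spleen to 233, 246 and 191 RPM in the liver. The cDC markers summed to 795 to 977 RPM in the spleen and 1076 to 1432 RPM in the liver, with Zbtb46 at 4.64 to 6.93 and 20.0 to 22.1 RPM and Cd209a, a marker of monocyte-derived dendritic cells, at 6.78 to 8.30 and 102 to 159 RPM. KC markers summed to 145 to 193 and 494 to 811 RPM, and neutrophil markers to 1084 to 2470 and 8.36 to 14.9 RPM. The part of these markers was not tested. In bulk samples, a larger share of class II-rich cells and more class II RNA per cell cannot be told apart.

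In wild-type Ly6Chi macrophages the organs differed in opposite directions for different members. The I-A and I-E chains, Cd74, H2-DMa, H2-DMb1 and Ciita were higher in the liver (7 of 10, against 17.1% of all genes), and H2-Oa and H2-Ob were lower (2 of 10, against 20.7%). H2-Ab1 rose by 2.45 ± 0.10 and Cd74 by 2.13 ± 0.14 (adjusted p 5.05e-07 and 4.55e-06). H2-Oa measured 21.2, 15.5 and 21.4 RPM in the spleen and 11.7, 10.9 and 7.78 RPM in the liver, and fell by 0.62 ± 0.19 (adjusted p 0.023). H2-Ob measured 19.1, 20.8 and 21.8 RPM against 9.73, 11.8 and 8.41 RPM, and fell by 0.72 ± 0.15 (adjusted p 0.00378). Both chains of H2-O were thus lower where the I-A chains were higher, with no overlap between the organs. H2-DMb2 went the same way as H2-O, and against H2-DMa and H2-DMb1, without passing the fold (-0.45 ± 0.15), and H2-DMb1 rose by 0.86 ± 0.22 with 1 liver library, at 104.6 RPM, inside the splenic range of 99.7 to 110.5 RPM. The cDC markers, which could accompany class II, summed to 928 to 1008 RPM in the spleen and 754 to 818 RPM in the liver over 13 genes, and the 12 B cell markers to 65.8 to 74.0 and 44.4 to 49.7 RPM. Neutrophil markers went from 30729 to 32971 RPM in the spleen to 346 to 2467 RPM in the liver, and T and NK cell markers from 575 to 621 to 19.0 to 39.8 RPM. Hspa1a, a heat shock gene, was 22.2 to 34.0 RPM in the 6 wild-type splenic libraries and 530 to 2082 RPM in the 6 wild-type hepatic Ly6Chi and Ly6Clow libraries. The part of these genes in the organ differences was not tested.

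Within wild-type spleens, H2-M and Ciita were lower in Ly6Clow than in Ly6Chi macrophages. H2-DMa fell from 103.7, 105.0 and 101.7 RPM to 44.3, 53.9 and 42.7 RPM (-0.98 ± 0.11, adjusted p 3.23e-05). H2-DMb1 fell by 1.00 ± 0.16, H2-DMb2 by 0.61 ± 0.14 and Ciita by 0.92 ± 0.12 (adjusted p 0.000463, 0.00392 and 9.17e-05). These 4 of 10 genes compare with 19.8% of all genes lower. Ciita was 66.3, 72.7 and 72.3 RPM in Ly6Chi cells, above every Ly6Clow library. H2-Aa, Cd74, H2-Eb1, H2-Oa and H2-Ob did not pass the test, with differences between -0.21 and 0.22, and H2-Ab1 (-0.30 ± 0.10) did not reach the fold. The libraries of H2-Aa (465 to 511 against 353 to 409 RPM) and of H2-Ab1 (163 to 182 against 112 to 143 RPM) were nevertheless apart, with Ly6Clow cells lower. Markers of other cells were lower in Ly6Clow cells too: neutrophil markers went from 30729 to 32971 down to 1084 to 2470 RPM (12 of 12 genes lower), T and NK cell markers from 575 to 621 down to 85.8 to 132 RPM (11 of 11) and plasmacytoid dendritic cell markers from 404 to 418 down to 298 to 352 RPM (6 of 8 lower and 1 higher). Their part was not tested.

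Within wild-type livers the called members were higher in Ly6Clow macrophages, and H2-DMb2 was the 1 member called in both organs, in opposite directions. H2-Oa measured 11.7, 10.9 and 7.78 RPM in Ly6Chi and 114.6, 128 and 103 RPM in Ly6Clow macrophages, a rise of 3.29 ± 0.19 (adjusted p 1.75e-05). H2-Ob measured 9.73, 11.8 and 8.41 RPM in Ly6Chi and 98.3, 77.0 and 66.7 RPM in Ly6Clow macrophages, a rise of 2.78 ± 0.19 (adjusted p 4.75e-05). H2-DMb2 rose by 2.12 ± 0.19, H2-Eb1 by 1.36 ± 0.18 and H2-Aa by 1.00 ± 0.18 (adjusted p 0.00018, 0.00137 and 0.00698). Higher calls thus took 5 of 10 members, against 5.24% of all genes, and the ranges of these 5 genes did not overlap between the subsets. H2-DMa, H2-DMb1, Cd74, Ciita and H2-Ab1 did not pass (between -0.44 and 0.68), although the ranges of H2-Ab1 did not overlap either. In the same libraries the cDC markers summed to 754 to 818 RPM in Ly6Chi and 1076 to 1432 RPM in Ly6Clow macrophages. Zbtb46, a transcription factor of cDCs, was 3.09 to 4.56 RPM in Ly6Chi and 20.0 to 22.1 RPM in Ly6Clow macrophages, and Pax5, the factor of B cell identity, was at most 1.59 RPM in both. B cell markers summed to 44.4 to 49.7 RPM in Ly6Chi and 79.0 to 85.1 RPM in Ly6Clow macrophages. Endothelial markers summed to 96.6 to 143 and 294 to 563 RPM in the same order, and neutrophil markers to 346 to 2467 and 8.36 to 14.9 RPM. The part of these markers in the subset differences was not tested.

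KCs were compared with both hepatic subsets. Against Ly6Clow macrophages they were lower in H2-Oa (-2.07 ± 0.21, adjusted p 2.27e-05), H2-Aa (-1.61 ± 0.21), H2-Eb1 (-1.4 ± 0.20), Cd74 (-1.01 ± 0.32), H2-Ab1 (-0.93 ± 0.25) and Ciita (-0.74 ± 0.17), which makes 6 of 10 against 24% of all genes. Against Ly6Chi macrophages they were higher in H2-Ob (2.92 ± 0.28, adjusted p 4.83e-06), H2-DMb2 (2.05 ± 0.17) and H2-Oa (1.26 ± 0.25), 3 of 10 against 29.3%, and lower in H2-DMa (-1.01 ± 0.21) and H2-Aa (-0.59 ± 0.20), 2 of 10 against 25.3%, shares close to those of all genes. H2-Ob measured 101.7, 89.7, 229 and 129.6 RPM in KCs and H2-DMb2 143, 138, 177 and 153 RPM, the highest group means of both genes. These differences depend on the scaling between unlike cells: with RPM as deposited, the median of all genes went from 0.02 to 0.55 against Ly6Clow and from 0.05 to 0.67 against Ly6Chi macrophages, the share of called genes that were higher went from 52% to 79.8% and from 53.7% to 82.2%, and H2-Aa reversed against Ly6Chi macrophages to 0.09. Against Ly6Clow macrophages, Cd74, H2-Ab1 and Ciita were no longer called with RPM as deposited (-0.42 ± 0.27, -0.34 ± 0.23 and -0.15 ± 0.17), which left 3 of 10 lower against 11.1% of all genes, and H2-DMb1 was higher (0.73 ± 0.20, adjusted p 0.00957), 1 of 10 against 43.8%. In RPM the libraries of Cd74, H2-Ab1 and Ciita overlapped between KCs and Ly6Clow macrophages, and those of H2-DMb1 (188 to 339 against 140 to 163 RPM) and H2-DMb2 (138 to 177 against 97.4 to 130 RPM) were higher in KCs without overlap.

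KCs had the largest median sums of the B cell, cDC and sinusoidal endothelial marker lists among the 9 groups. Endothelial markers summed to 4221 to 9212 RPM in KCs, against 96.6 to 563 RPM in the other wild-type liver libraries. The B cell markers summed to 1183 to 1728 RPM in KCs, against 44.4 to 85.1 RPM in the other wild-type liver libraries, with Pax5 at 174 to 451 RPM. The cDC markers summed to 1259 to 2478 RPM, which overlaps the 1076 to 1432 RPM of wild-type hepatic Ly6Clow macrophages. The KC library with the most H2-Ob (replicate 3) also had the most Pax5 and the largest endothelial and cDC sums, and its own KC markers summed to 7544 RPM against 19968 to 22329 RPM in the other 3. Without it, the same 6 members were lower than in Ly6Clow macrophages, against 25% of all genes, and against Ly6Chi macrophages H2-Ob was 2.66 ± 0.21 higher and H2-Aa (-0.58 ± 0.19) fell under the fold. The part of these markers in the class II values of KCs was not tested.

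**Figure D2:**
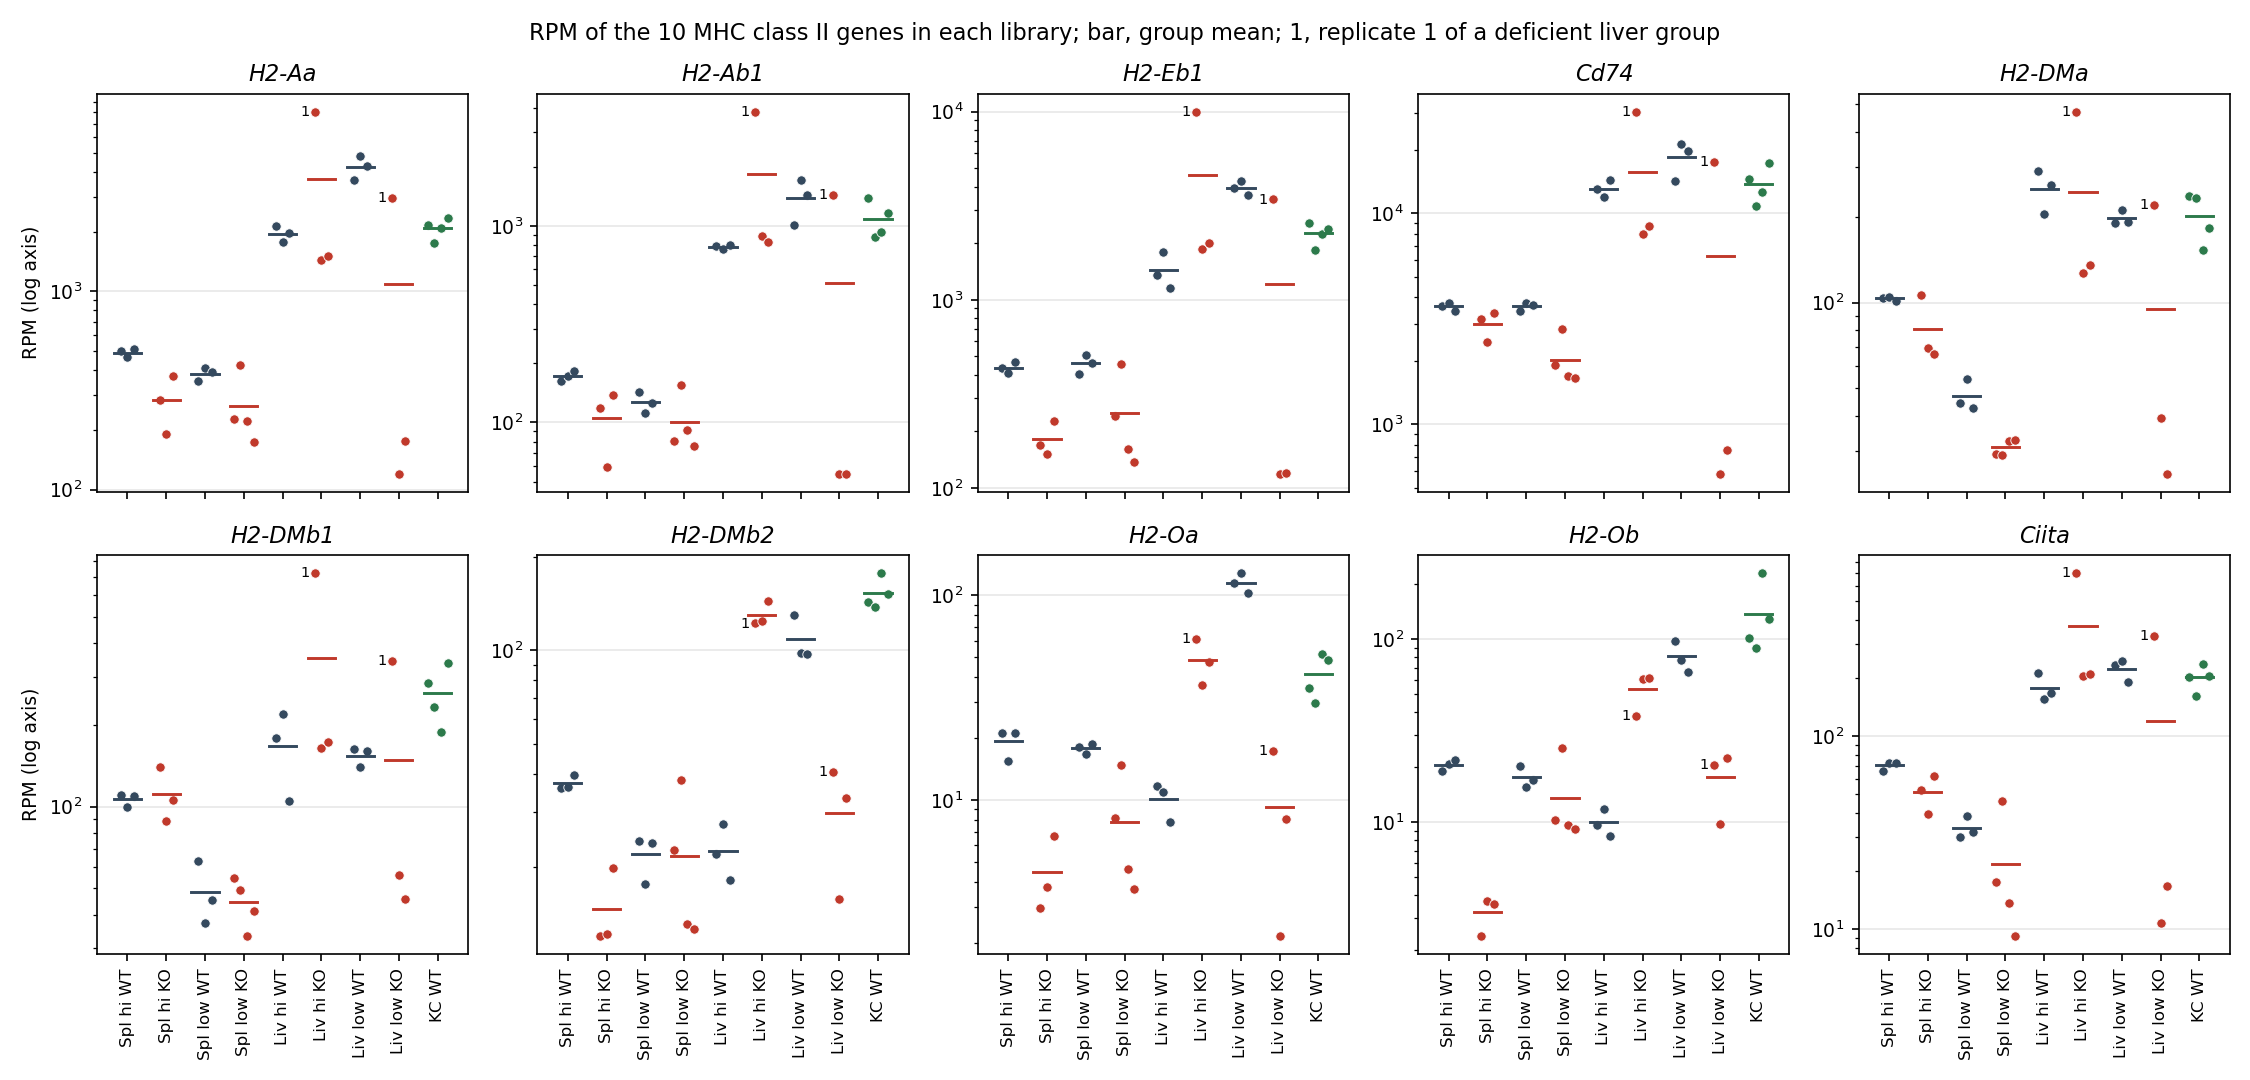
RPM of each of the 10 class II genes in each of the 29 libraries, on a log axis, with 1 point per library and the groups along the horizontal axis. Replicate 1 of the Rnaset2-/- hepatic groups, marked 1, sits above the other replicates for the I-A and I-E chains, Cd74, H2-DMa, H2-DMb1 and Ciita, and under them for H2-DMb2 and H2-Ob in Ly6Chi macrophages.

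In splenic Ly6Chi macrophages, loss of RNase T2 went with lower RNA of the class II chains and of H2-O. H2-Ob measured 19.1, 20.8 and 21.8 RPM in wild-type and 2.41, 3.73 and 3.56 RPM in Rnaset2-/- libraries, a fall by 2.26 ± 0.17 (adjusted p 1.06e-05). H2-Oa measured 21.2, 15.5 and 21.4 RPM in wild-type and 2.98, 3.77 and 6.65 RPM in Rnaset2-/- libraries, a fall by 1.84 ± 0.24 (adjusted p 0.000246). H2-DMb2 measured 35.9, 36.1 and 39.6 RPM against 12, 12.1 and 19.8 RPM and fell by 1.21 ± 0.18 (adjusted p 0.000517). The ranges of these 3 genes were far apart, and each had its lowest group mean of the 9 in splenic Rnaset2-/- Ly6Chi cells. H2-Eb1 fell from 435, 406 and 466 RPM to 169, 151 and 225 RPM (-1.16 ± 0.13, adjusted p 0.000102).

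The I-A chains had smaller differences. H2-Aa measured 283, 191 and 376 RPM in Rnaset2-/- Ly6Chi cells of the spleen, all under the wild-type libraries, and fell by 0.73 ± 0.18 (adjusted p 0.0104). H2-Ab1 measured 163, 173 and 182 RPM in wild-type against 118, 59.4 and 137 RPM and fell by 0.68 ± 0.23 (adjusted p 0.0401). In all, 6 of 10 members were lower, against 12.5% of all tested genes, and none was higher. Without Rnaset2-/- replicate 2, H2-Aa and H2-Ab1 differed by -0.49 and -0.33, under 1.5-fold, and 4 of 10 members were called. The share of all genes in that fit is not given here, and the 12.5% belongs to the fit of all libraries of this comparison. H2-Ab1 also did not pass when any wild-type library was left out. The other 4 did not pass: Cd74 differed by -0.17 ± 0.13, H2-DMa by -0.27 ± 0.16, H2-DMb1 by 0.15 ± 0.14 and Ciita by -0.35 ± 0.14 (adjusted p 0.342, 0.2, 0.416 and 0.0691). Ciita was nevertheless under the wild-type range in each library, with 52.7, 39.4 and 62.1 RPM against 66.3 to 72.7 RPM. The median difference over the 10 members was -0.70, and over all tested genes 0.01.

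Markers of other cells differed in the same libraries. Neutrophil markers were higher (7 of 12), with sums of 30729 to 32971 RPM in wild-type and 33586, 58218 and 54780 RPM in Rnaset2-/- libraries, and endothelial markers summed to 49.3 to 52.5 RPM against 72.9 to 162 RPM (1 higher and 2 lower of 4 tested). Among cDC markers 9 of 11 tested genes were lower and 1 was higher, and the 13-gene sum went from 928 to 1008 RPM down to 568 to 705 RPM. Flt3, a receptor of dendritic cell progenitors and cDCs, was 20.0 to 22.2 RPM in wild-type and 2.55 to 4.61 RPM in Rnaset2-/- libraries, and Zbtb46 was 4.55 to 6.18 RPM against 0.378 to 0.997 RPM. Among plasmacytoid dendritic cell markers 6 of 7 were lower (404 to 418 RPM against 195 to 248 RPM in sum), and among T and NK cell markers 11 of 11 (575 to 621 RPM against 40.6 to 58.2 RPM). The B cell sum went from 65.8 to 74.0 RPM down to 38.9 to 45.8 RPM, and Pax5 was low in both genotypes, at 0 to 0.56 RPM against 0 to 0.803 RPM, with 1 library of each at 0. Erythroid markers summed to 104 to 108 RPM in wild-type and 2.69 to 9.26 RPM in Rnaset2-/- libraries. Hspa1a was 22.2 to 25.6 RPM in wild-type and 2.70 to 4.68 RPM in Rnaset2-/- libraries. The part of these genes in the class II fall was not tested.

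**Figure D3:**
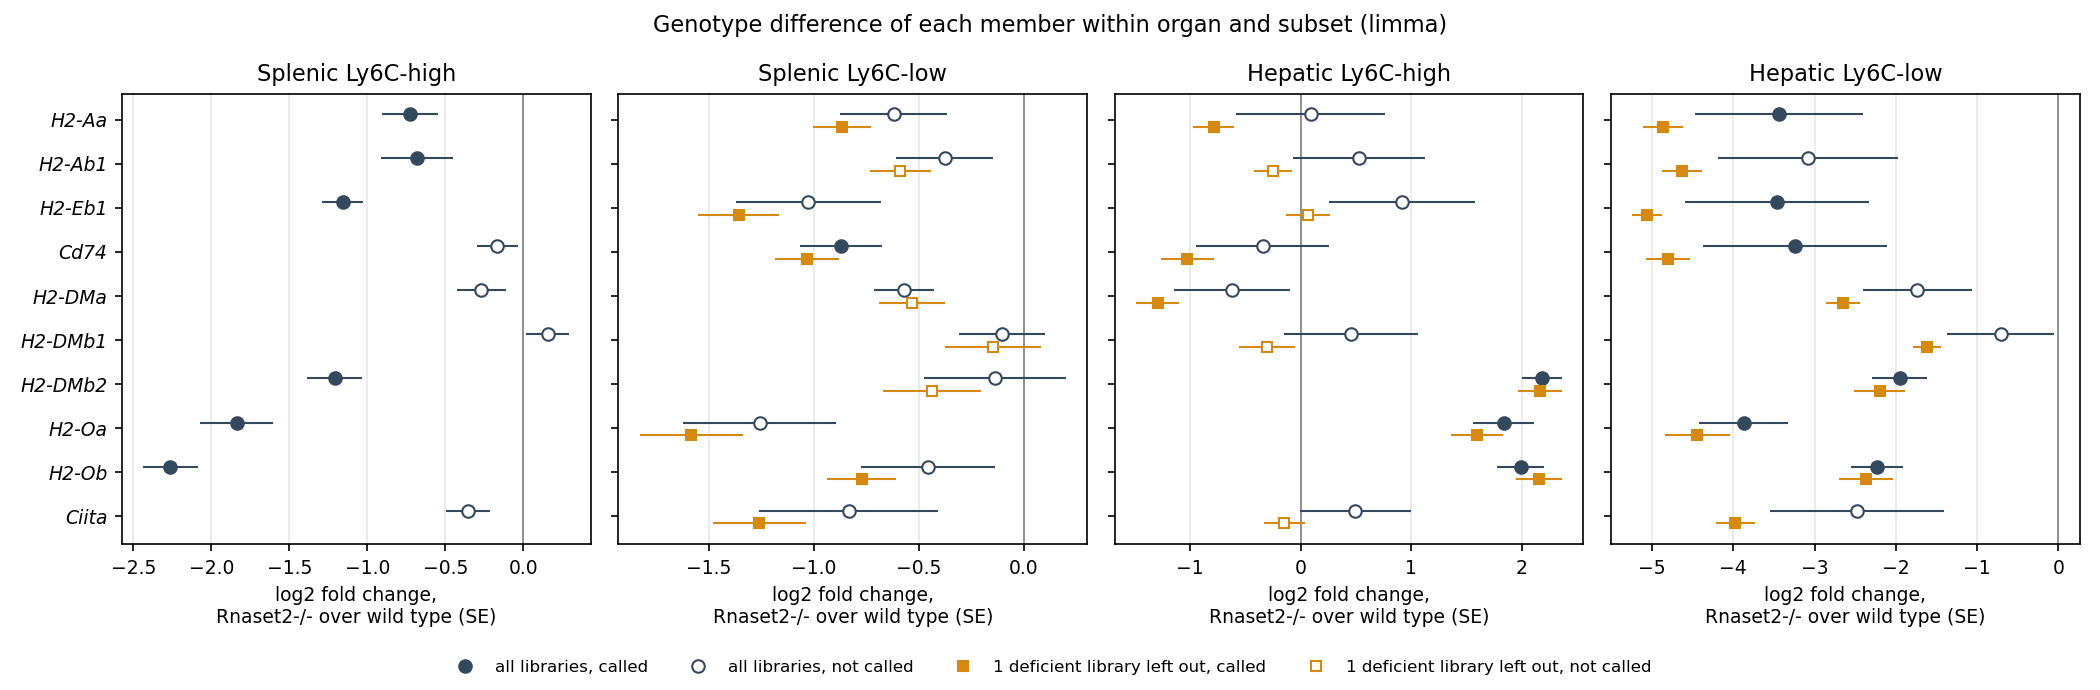
Difference between Rnaset2-/- and wild-type macrophages for each of the 10 class II genes, in log2(scaled RPM + 1) with SE, in the 4 populations. Dark circles use all libraries, orange squares leave out Ly6Clow replicate 2 of the Rnaset2-/- spleen or replicate 1 of the Rnaset2-/- liver group, and filled symbols passed the threshold. The 3 genes H2-DMb2, H2-Oa and H2-Ob were lower in splenic Ly6Chi, higher in hepatic Ly6Chi and lower in hepatic Ly6Clow macrophages.

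In splenic Ly6Clow macrophages fewer members were called, and Rnaset2-/- replicate 2 lay inside the wild-type range of H2-Eb1 and H2-DMb1, above that of H2-Aa, H2-Ab1, H2-DMb2, H2-Ob and Ciita, and under that of Cd74, H2-DMa and H2-Oa. With all libraries Cd74 alone was lower (1 of 10, against 4.3% of all genes), from 3461, 3762 and 3678 RPM to 1902, 2819, 1694 and 1666 RPM, a fall by 0.87 ± 0.20 (adjusted p 0.0313), and this call was lost when any of the 3 wild-type libraries or Rnaset2-/- replicate 3 or 4 was left out. H2-DMa was next, with 44.3, 53.9 and 42.7 RPM against 29.4, 29, 32.7 and 32.8 RPM. Its groups did not overlap, but the difference of -0.57 ± 0.14 (adjusted p 0.0431) was under 1.5-fold. H2-Eb1 measured 403, 509 and 464 RPM against 241, 457, 161 and 137 RPM (-1.03 ± 0.34, adjusted p 0.091), and replicate 2 was the one inside the wild-type range.

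Without Rnaset2-/- replicate 2, 6 of 10 members were lower in splenic Ly6Clow macrophages, against 2.53% of all genes. These were H2-Oa (-1.58 ± 0.24, adjusted p 0.0158), H2-Eb1 (-1.36 ± 0.19), Ciita (-1.26 ± 0.22), Cd74 (-1.03 ± 0.15), H2-Aa (-0.87 ± 0.14) and H2-Ob (-0.77 ± 0.17, adjusted p 0.0463). Ciita measured 17.6, 46.1, 13.6 and 9.23 RPM in the 4 Rnaset2-/- libraries and 29.8 to 38.3 RPM in wild-type cells. H2-Ob in replicate 2 was 25.5 RPM, against 10.2, 9.72 and 9.16 RPM in the other Rnaset2-/- libraries. Replicate 2 did not have the most B cell marker RNA of its group: the sums were 198, 88, 60 and 63 RPM in replicates 1 to 4, and neutrophil markers summed to 40758, 22881, 4409 and 3460 RPM, against 1084 to 2470 RPM in wild-type cells. The sums of endothelial markers (272 to 327 RPM in wild-type against 1463 to 2206 RPM) and KC markers (145 to 193 against 250 to 810 RPM) were also above wild-type in every Rnaset2-/- library. Of the endothelial genes, Stab2 was 0 RPM and Clec4g at most 0.568 RPM in these Rnaset2-/- libraries. Of the KC genes, Clec4f was at most 0.071 RPM there. Timd4, the gene of Tim4, was 0.709 to 3.84 RPM, against 1.37 to 3.01 RPM in wild-type cells. Without replicate 2, 1 of 3 tested endothelial and 2 of 9 tested KC genes were higher, against 2.36% of all genes. cDC markers summed to 860, 823, 595 and 602 RPM in replicates 1 to 4, against 795 to 977 RPM in wild-type cells. Their sum was thus highest in replicate 1. The single dendritic cell genes named next were nevertheless highest in replicate 2. In replicates 1 to 4, Flt3 was 3.13, 6.74, 1.49 and 0.916 RPM, Zbtb46 was 2.13, 6.88, 1.56 and 0.986 RPM, and Cd209a was 0.213, 4.33, 0.709 and 0.423 RPM. Xcr1 and Clec9a, receptors of the cross-presenting cDC subset, were 33.1 and 17.7 RPM in replicate 2, against 3.12 to 11.7 and 3.38 to 9.46 RPM in the other 3, and Siglech, a plasmacytoid dendritic cell marker, was 16.2 RPM against 0.705 to 4.26 RPM. The plasmacytoid dendritic cell list summed to 219, 296, 356 and 296 RPM in replicates 1 to 4, and was thus highest in replicate 3. T and NK cell markers were highest in replicate 2, with a sum of 52.7 RPM against 10.9 to 18.9 RPM. The part of these markers in the class II values of the group and of replicate 2 was not tested.

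Within Rnaset2-/- spleens, H2-Ob was higher in Ly6Clow than in Ly6Chi macrophages (1.69 ± 0.34, adjusted p 0.00821), 1 of 10 against 13% of all genes. H2-DMa, H2-DMb1 and Ciita were lower, by 1.31 ± 0.18, 1.29 ± 0.19 and 1.43 ± 0.44 (adjusted p 0.00183, 0.00222 and 0.0371), 3 of 10 against 15.1%. Without replicate 2 of the Ly6Clow macrophages these 4 calls held and Cd74 was lower too (-0.74 ± 0.17, adjusted p 0.0204). With edgeR 3 members were called, where 2839 of 10309 genes were called in either direction. With limma without Ly6Chi replicate 1 the number was also 3, and the share of all genes in that fit is not given here. H2-DMa, H2-DMb1 and Ciita were thus lower in splenic Ly6Clow than Ly6Chi macrophages in both genotypes, and H2-DMb2 was lower in wild-type cells, with a difference of 0.44 ± 0.36 in Rnaset2-/- cells. The genotype effect differed between the subsets for H2-Ob (interaction 1.78 ± 0.41, adjusted p 0.0125), 1 of 10 against 8.35% of genes with a higher interaction. Without replicate 2, Cd74 (-0.89 ± 0.18) and Ciita (-0.93 ± 0.27) also had an interaction, with lower values in Ly6Clow macrophages (adjusted p 0.0104 and 0.0448). From Rnaset2-/- splenic Ly6Chi to Ly6Clow macrophages, B cell markers went from 38.9 to 45.8 RPM to 59.5 to 198 RPM. The sum of endothelial markers went from 72.9 to 162 RPM to 1463 to 2206 RPM, and that of KC markers from 110 to 121 RPM to 250 to 810 RPM. In both subsets Stab2 was at most 0.047 RPM, Clec4g at most 0.568 RPM and Clec4f at most 0.071 RPM. Timd4 went from 0 to 0.237 RPM to 0.709 to 3.84 RPM. Erythroid markers went from 2.69 to 9.26 RPM to 54.1 to 944 RPM. T and NK cell markers overlapped (40.6 to 58.2 and 10.9 to 52.7 RPM). The part of these markers was not tested.

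In hepatic Ly6Chi macrophages, 3 of the 6 members that were lower in splenic Rnaset2-/- Ly6Chi macrophages were higher in the Rnaset2-/- cells. H2-DMb2 measured 22.1, 27.5 and 18.2 RPM in wild-type and 122, 124 and 144 RPM in Rnaset2-/- libraries, a rise of 2.18 ± 0.18 (adjusted p 0.000359). H2-Ob measured 9.73, 11.8 and 8.41 RPM in wild-type and 38.2, 60.7 and 61.6 RPM in Rnaset2-/- libraries, a rise of 1.99 ± 0.21 (adjusted p 0.000846). H2-Oa measured 11.7, 10.9 and 7.78 RPM against 61.0, 36.5 and 47.2 RPM, a rise of 1.83 ± 0.28 (adjusted p 0.0031). The groups of these 3 genes did not overlap, and they were the members called higher, 3 of 10 against 15.7% of all genes. With RPM as deposited the median of all genes went from 0.01 to 0.31 and the share of called genes that were higher went from 51.2% to 74.6%.

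The chains, Cd74, H2-DMa, H2-DMb1 and Ciita turned on replicate 1. H2-Aa measured 2134, 1764 and 1955 RPM in wild-type and 8041, 1432 and 1500 RPM in Rnaset2-/- Ly6Chi macrophages of the liver (0.09 ± 0.67, adjusted p 0.93). H2-Eb1 measured 10010.0, 1854 and 1998 RPM in Rnaset2-/- libraries, Cd74 30382, 7986 and 8760 RPM and Ciita 699.9, 204 and 209.5 RPM, so that replicate 1 was above and replicates 2 and 3 were close to or under the wild-type range of H2-Aa and Cd74. Without replicate 1, H2-DMa was lower by 1.29 ± 0.20, Cd74 by 1.02 ± 0.24 and H2-Aa by 0.79 ± 0.19 (adjusted p 0.000474, 0.00638 and 0.00765), 3 of 10 against 19.4% of all genes. H2-DMb2, H2-Ob and H2-Oa were higher as before (2.17 ± 0.20, 2.15 ± 0.21 and 1.59 ± 0.23), 3 of 10 against 17.7%. H2-DMb2 and H2-Ob were therefore as high in replicates 2 and 3 as in replicate 1, unlike the chains.

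B cell markers rose in the same libraries. Among the 12 tested B cell markers 12 were higher, and their sum went from 44.4 to 49.7 RPM up to 187, 332 and 513 RPM in Rnaset2-/- replicates 1, 2 and 3. Pax5 was 0.54 to 1.59 RPM in wild-type and 26.9, 41.6 and 67.8 RPM in Rnaset2-/- libraries. H2-Ob was lowest in the library with least Pax5, and H2-Oa was highest there. T and NK cell markers (9 of 11 higher) and markers of liver sinusoidal endothelial cells (10 of 10 higher, 96.6 to 143 RPM against 512 to 3391 RPM in sum) rose as well, and cDC markers were mixed (4 higher and 1 lower of 13). Erythroid markers summed to 0.463 to 3.755 RPM in wild-type and 51.4 to 255 RPM in Rnaset2-/- libraries. The part of B cells and of the other cells in the H2-O and H2-DMb2 values was not tested. Replicate 1, with the most class II chains, had the smallest sums of B cell, cDC (577 RPM, against 1031 and 1235 RPM) and endothelial markers (512 RPM, against 2636 and 3391 RPM) of its group, and the largest sum of MHC class I genes (26601 RPM, against 19647 and 17732 RPM). Its Ly6C-low monocyte markers summed to 2148 RPM, against 8325 and 8000 RPM in replicates 2 and 3 (wild-type 6956 to 7509 RPM). It also had the largest sums of macrophage lineage (31973 RPM, against 22879 and 22744 RPM) and erythroid markers (255 RPM, against 51.4 and 132 RPM). The part of these sums in its class II values was not tested.

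In hepatic Ly6Clow macrophages, Rnaset2-/- libraries 2 and 3 had far less RNA of the class II chains and Cd74 than wild-type cells. H2-Aa measured 3615, 4801 and 4277 RPM in wild-type and 2956, 120.2 and 177 RPM in Rnaset2-/- libraries, and fell by 3.44 ± 1.03 (adjusted p 0.0268). H2-Eb1 measured 3930, 4295 and 3604 RPM against 3415, 119 and 119.5 RPM and fell by 3.46 ± 1.13 (adjusted p 0.0371). Cd74 measured 14318, 21424 and 19698 RPM against 17547, 583 and 757 RPM and fell by 3.24 ± 1.13 (adjusted p 0.0463). Replicate 1 lay inside the wild-type range of Cd74 and just under that of H2-Aa and H2-Eb1, while the other 2 libraries were more than an order of magnitude lower.

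The H2-O chains and H2-DMb2 fell in all 3 Rnaset2-/- Ly6Clow libraries of the liver. H2-Oa measured 114.6, 128 and 103 RPM in wild-type and 17.3, 2.18 and 8.12 RPM in Rnaset2-/- libraries, a fall by 3.87 ± 0.55 (adjusted p 0.000925). H2-Ob measured 98.3, 77.0 and 66.7 RPM against 20.6, 9.81 and 22.4 RPM and fell by 2.23 ± 0.32 (adjusted p 0.000994). H2-DMb2 measured 130.0, 98.2 and 97.4 RPM against 40.5, 15.8 and 33.4 RPM and fell by 1.95 ± 0.34 (adjusted p 0.00236). With these, 6 of 10 members were lower, against 22.5% of all genes. H2-Ab1, H2-DMa, H2-DMb1 and Ciita did not pass with all libraries (-3.08 ± 1.11, -1.74 ± 0.67, -0.71 ± 0.66 and -2.48 ± 1.07, adjusted p 0.052 to 0.411). The calls of H2-Aa, H2-Eb1 and Cd74 were lost with DESeq2, with edgeR and when any library of this comparison except Rnaset2-/- replicate 1 was left out, which left 3 of 10 members.

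Without replicate 1 all 10 members were lower in hepatic Ly6Clow macrophages, against 22.8% of all genes. H2-Eb1 fell by 5.06 ± 0.18, H2-Aa fell by 4.87 ± 0.25, Cd74 fell by 4.8 ± 0.27 and H2-Ab1 fell by 4.63 ± 0.25 (adjusted p 7.1e-07 to 4.37e-06). Ciita fell by 3.98 ± 0.24, from 233, 246 and 191 RPM to 10.7 and 16.7 RPM in replicates 2 and 3, against 333 RPM in replicate 1. H2-DMa fell by 2.65 ± 0.21 and H2-DMb1 by 1.62 ± 0.18, the smallest of the 10 falls. The chains and Cd74 thus fell further than H2-M when replicate 1 was left out.

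The other markers of these libraries also differed from wild-type. The KC list summed to 494 to 811 RPM in wild-type and 12594, 8553 and 7184 RPM in Rnaset2-/- Ly6Clow macrophages of the liver, and 7 of 10 of its genes were higher. cDC markers included 5 lower and 2 higher of 12 tested genes (sums 1076 to 1432 RPM against 718 to 1061 RPM). Flt3 went from 18.1 to 27.6 RPM down to 0.389 to 0.689 RPM, and Cd209a from 102 to 159 RPM down to 0.077 to 0.545 RPM, in replicate 1 as in the others. Xcr1 instead went from 7.23 to 11.2 RPM up to 120, 65.6 and 108 RPM, and Clec9a from 92.0 to 98.7 RPM to 128, 42.6 and 42.8 RPM in replicates 1 to 3. B cell markers were higher (7 of 8 tested), with sums of 79.0 to 85.1 RPM against 260, 335 and 544 RPM in replicates 1 to 3. Replicate 1 had the smallest B cell sum and the largest sums of KC and macrophage lineage markers (12545 RPM, against 6236 and 4997 RPM). Endothelial markers summed to 294 to 563 RPM in wild-type and 1423 to 4630 RPM in Rnaset2-/- libraries. T and NK cell markers went from 17.4 to 37.3 RPM in wild-type to 134, 41.3 and 75.8 RPM in replicates 1 to 3. In the same order, erythroid markers went from 0.911 to 4.71 RPM to 149, 53.8 and 116 RPM. Markers of Ly6C-high monocytes went from 489 to 682 RPM to 247, 34.55 and 100.5 RPM. Hspa1a fell from 1189 to 2082 RPM to 34.4, 40.2 and 39.0 RPM, and Nr4a1, a transcription factor of Ly6Clow monocytes that stimulation also induces, from 5025 to 6413 RPM to 310.4, 1008 and 549 RPM. In hepatic Ly6Chi macrophages Hspa1a went from 530 to 1047 RPM to 131, 292 and 411 RPM and Nr4a1 from 4717 to 5277 RPM to 203, 1516 and 2281 RPM. The part of these lists and genes in the class II values was not tested.

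**Figure D4:**
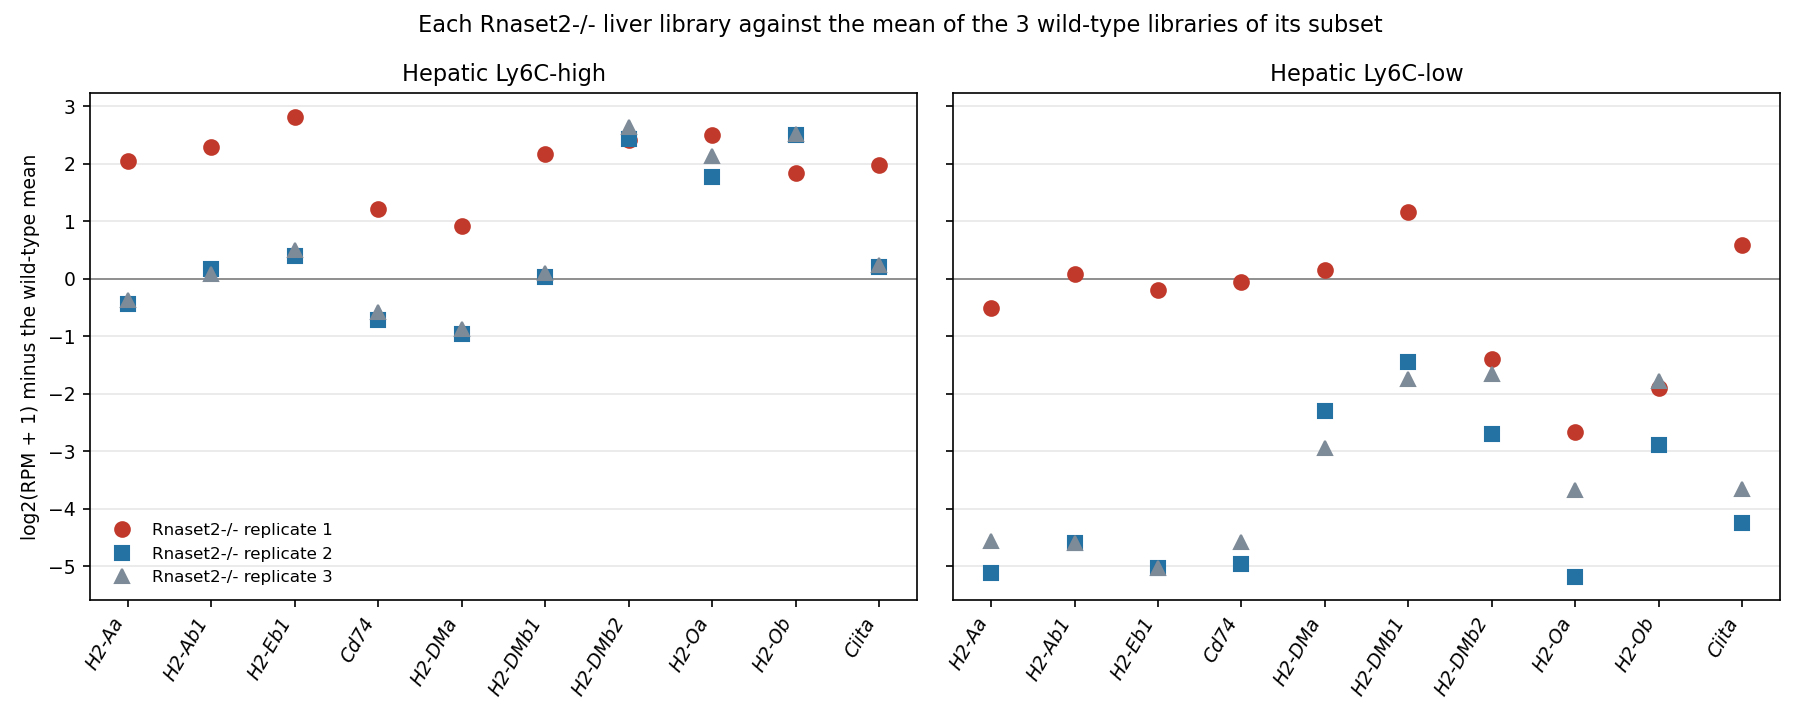
Difference of each Rnaset2-/- hepatic library from the wild-type mean of its subset, in log2(RPM + 1), for the 10 class II genes, with 1 symbol per replicate. Replicate 1 is above replicates 2 and 3 for the I-A and I-E chains, Cd74, H2-DMa, H2-DMb1 and Ciita in both subsets, and H2-Ob is not highest in replicate 1 in either subset.

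Same-numbered libraries of the Rnaset2-/- liver moved together, so that the subsets there were compared with and without the replicate as a block. Without the block, H2-DMb2, H2-Oa and H2-Ob were lower in Ly6Clow than in Ly6Chi macrophages, with differences of -2.02 ± 0.36, -2.42 ± 0.63 and -1.44 ± 0.35 (adjusted p 0.0132, 0.0406 and 0.0335), 3 of 10 against 8.26% of all genes. None of the 10 passed without Ly6Chi replicate 2 or without Ly6Chi replicate 3, and 1 passed without Ly6Clow replicate 2. The shares of all genes in these fits are not given here. With the block all 10 members were lower, against 15.6%, by between 1.34 ± 0.19 (H2-DMb1) and 3.02 ± 0.44 (H2-Eb1). H2-Aa, for one, went from 8041 to 2956 RPM in replicate 1, from 1432 to 120.2 RPM in replicate 2 and from 1500.1 to 177 RPM in replicate 3. Without both replicates 1 all 10 were lower as well, against 12.1% of all genes, by between 1.46 ± 0.19 (H2-DMb1) and 3.74 ± 0.19 (H2-Eb1). In wild-type livers 5 members (H2-Oa, H2-Ob, H2-DMb2, H2-Eb1 and H2-Aa) were instead higher in Ly6Clow macrophages, and the other 5 did not pass. Among other cells' markers, the KC list summed to 472 to 690 RPM in Rnaset2-/- hepatic Ly6Chi and 7184 to 12594 RPM in Ly6Clow macrophages, and the T and NK cell list to 412 to 523 and 41.3 to 134 RPM. Their part was not tested.

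The interaction of genotype and subset in the liver was lower for H2-Oa (-5.69 ± 0.69), H2-Ob (-4.20 ± 0.40) and H2-DMb2 (-4.11 ± 0.41), with adjusted p of 0.000597, 0.000193 and 0.00023, 3 of 10 against 5.25% of all genes. Without both replicates 1 it was lower for all 10 members, against 11%, from -1.28 ± 0.33 (H2-DMb1) to -6.01 ± 0.51 (H2-Oa). The effect of genotype was thus unequal between the hepatic subsets for H2-O and H2-DMb2 with every library included, and for the other members it passed in the fit without both replicates 1. These interactions are given without the replicate block, although same-numbered libraries of the Rnaset2-/- liver moved together.

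The effect of genotype also differed between the organs. In Ly6Chi macrophages the interaction with organ was higher in the liver for H2-Ob (4.28 ± 0.27, adjusted p 4.7e-07), H2-Oa (3.70 ± 0.40), H2-DMb2 (3.43 ± 0.26) and H2-Eb1 (2.11 ± 0.74, adjusted p 0.0429), 4 of 10 against 17.6% of all genes. Without hepatic replicate 1 these 4 calls held, against 20.9%, with H2-Eb1 at 1.24 ± 0.23, and Cd74 (-0.84 ± 0.23) and H2-DMa (-1.0 ± 0.26) were lower, 2 of 10 against 20.2%. With RPM as deposited the median of all genes in this interaction went to 0.35. With DESeq2 3 members were called, where 3930 of 11398 genes were called in either direction. With limma without wild-type splenic Ly6Chi replicate 1 the number was also 3, and the share of all genes in that fit is not given here. In Ly6Clow macrophages the interaction was lower in the liver for H2-Oa (-2.61 ± 0.72), H2-DMb2 (-1.81 ± 0.52) and H2-Ob (-1.77 ± 0.49, adjusted p 0.017 to 0.0217), 3 of 10 against 14.7%. Without splenic replicate 2 the same 3 members were lower (-2.28 ± 0.68, -1.51 ± 0.45 and -1.46 ± 0.39), against 12.5%. Without hepatic replicate 1 it was lower for all 10 members, against 15%. These comparisons share their control libraries with those above. H2-DMb2, H2-Oa and H2-Ob were the members called in 3 of the 4 interactions with all libraries, and H2-Ob was called in the fourth.

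Within Rnaset2-/- mice the organs differed in Ly6Chi macrophages but not detectably in Ly6Clow macrophages. In Ly6Chi macrophages 8 of 10 members were higher in the liver, against 15.2% of all genes, with H2-Eb1 up by 4.14 ± 0.66 and H2-Ob by 3.60 ± 0.23 (adjusted p 0.00345 and 0.000112). H2-DMa (1.27 ± 0.54) and H2-DMb1 (1.24 ± 0.59) did not pass. Between these groups the B cell list went from 38.9 to 45.8 RPM in the spleen to 187 to 513 RPM in the liver, the T and NK cell list from 40.6 to 58.2 to 412 to 523 RPM, the endothelial list from 72.9 to 162 to 512 to 3391 RPM and the neutrophil list from 33586 to 58218 down to 248 to 1769 RPM, and their part was not tested. Without hepatic replicate 1 the same 8 genes passed, and without splenic replicate 2, 5 of them, both without the share of all genes in those fits. In Ly6Clow macrophages none of the 10 was called by limma or edgeR, 1 was called by DESeq2 and 0 had an unadjusted p below 0.05, against 36.1% of all genes called in either direction. Without splenic replicate 2 none was called either. Without hepatic replicate 1, Cd74 was lower in the liver (-1.53 ± 0.26, adjusted p 0.00484), 1 of 10 against 16.7%. The organ difference of wild-type Ly6Clow macrophages, which covered all 10 genes, was therefore not detected in Rnaset2-/- mice.

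Rnaset2-/- Ly6Clow macrophages of the liver, whose KC list sum was above that of wild-type Ly6Clow macrophages, were also set against KCs. The sum was 7184 to 12594 RPM in these Ly6Clow macrophages and 7544 to 22329 RPM in KCs. Single KC genes were far lower than in KCs. Clec4f was at most 63.3 RPM, against 1674 to 5471 RPM in KCs. Timd4 was at most 66.8 RPM, against 166 to 448 RPM in KCs. The paper reports that these Ly6Clow macrophages lacked Tim4 and Clec4f. H2-Ob, H2-DMb2 and H2-Oa were lower in the Ly6Clow macrophages by 2.36 ± 0.38, 1.89 ± 0.31 and 1.86 ± 0.53 (adjusted p 0.00113, 0.00116 and 0.0168). These 3 of 10, against 26.3% of all genes, are a share close to that of all genes. With RPM as deposited more members were called, and the median of all genes went from -0.08 to -0.56. More genes were called in that setting too, 6133 in place of 5535, of which 15.9% in place of 42.5% were higher. Without replicate 1 all 10 members were lower, against 23.9%, with Cd74 down by 3.79 ± 0.35 and H2-DMb1 by 1.76 ± 0.26. B cell markers summed to 1183 to 1728 RPM in KCs and 260 to 544 RPM in these Ly6Clow macrophages, with Pax5 at 174 to 451 and 3.81 to 24.9 RPM. cDC markers summed to 1259 to 2478 and 718 to 1061 RPM, and T and NK cell markers to 244 to 476 and 41.3 to 134 RPM. The part of these markers was not tested. KCs of Rnaset2-/- mice were not analysed here, so that the genotype of this comparison differs together with the cell type.

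Over the 9 group means, the 10 genes fell into those that followed the chains and those that did so less closely. The Pearson r of log2(scaled RPM + 1) was 0.989 between H2-Aa and H2-Ab1, 0.984 between H2-Aa and H2-Eb1 and 0.971 between H2-Aa and Cd74. Ciita followed the average of H2-Aa, H2-Ab1, H2-Eb1 and Cd74 with r = 0.948 and H2-DMa with 0.896, whereas H2-Ob followed it with 0.736. The lowest values among the pairs were those of H2-Ob with H2-DMa (0.46) and with H2-DMb1 (0.494), and H2-DMb2 lay nearer to H2-Ob (0.941). These r describe 9 groups, which share organ, dissociation and depth in part, and carry no test. The ratio of the highest to the lowest group mean was 42.6 for H2-Ob, 25.8 for H2-Oa and 25.4 for H2-Eb1, and between 7.93 (H2-DMb1) and 18.3 (H2-Ab1) for the other 7. Without the 3 libraries that stood apart, the r with the average of the chains and Cd74 was 0.95 for Ciita, 0.913 for H2-DMa and 0.693 for H2-Ob, and H2-Ob had 0.443 with H2-DMa. The ratio of highest to lowest mean was then 33.1 for H2-Eb1, 28.5 for H2-Aa, 27.6 for Cd74 and 25.3 for H2-Ab1.

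In the order of group means, most neighbouring groups overlapped. For H2-Aa the order ran from hepatic Ly6Clow wild-type cells down to splenic Ly6Clow Rnaset2-/- cells, and of neighbours only the wild-type splenic Ly6Chi and Ly6Clow groups did not overlap. For H2-Oa the neighbours that did not overlap were hepatic wild-type Ly6Clow and Rnaset2-/- Ly6Chi macrophages, KCs and splenic wild-type Ly6Chi cells, and splenic wild-type Ly6Clow and hepatic wild-type Ly6Chi macrophages. Splenic Rnaset2-/- Ly6Clow macrophages had the lowest mean of H2-Aa, H2-Ab1, Cd74, H2-DMa, H2-DMb1 and Ciita, and splenic Rnaset2-/- Ly6Chi macrophages that of H2-Eb1, H2-DMb2, H2-Oa and H2-Ob. Without the 3 libraries that stood apart, hepatic Rnaset2-/- Ly6Clow macrophages had the lowest mean of H2-Aa (148 RPM), H2-Ab1, H2-Eb1 and Cd74, the lowest group was the same for the other 6 members, and H2-Aa had 4 pairs of neighbours that did not overlap.

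The 10 genes outside the group whose means were most like the average of H2-Aa, H2-Ab1, H2-Eb1 and Cd74, out of 9677 genes with at least 10 RPM in 1 group, were Ccl22 (r = 0.988), 2900076A07Rik (0.942), Ccr7 (0.937), Tlr11 (0.925), Idnk (0.924), Sdc4 (0.923), Hspa1a (0.921), Slc30a4 (0.918), Nek6 (0.914) and Chchd3 (0.914). Of these, 5 were among the first 10 by Spearman's rho, 8 with RPM as deposited and 4 without the 3 libraries that stood apart, with r of 0.933 for Ccl22 and 0.851 for Hspa1a. Ccl22, a chemokine that draws T cells and is made by activated dendritic cells, had mean levels of 55.5 and 135 RPM in wild-type hepatic Ly6Chi and Ly6Clow macrophages and at most 2.85 RPM in the splenic groups. Ccr7, the receptor that takes dendritic cells to lymph nodes, was 71.9 and 180.1 RPM in those hepatic groups, 30.5 RPM in wild-type and 3.65 RPM in Rnaset2-/- splenic Ly6Chi macrophages.

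Other genes of the pathway were counted in the same 4 comparisons of genotype. Of 20 tested regulators of class II transcription, 3 were lower and 1 was higher in Rnaset2-/- splenic Ly6Chi, 1 and 0 in splenic Ly6Clow, 4 and 0 in hepatic Ly6Chi, and 5 and 0 in hepatic Ly6Clow macrophages, with list medians of -0.08, -0.03, -0.28 and -0.29, against 0.01 over all genes in each. Of all genes, 12.5%, 4.3%, 14.9% and 22.5% were lower in these populations and 9.77%, 4.05%, 15.7% and 20.2% were higher. Without Rnaset2-/- replicate 2 of splenic Ly6Clow, or replicate 1 of either hepatic subset, 1 was lower in splenic Ly6Clow (against 2.53% of all genes), 6 were lower and 1 higher in hepatic Ly6Chi (against 19.4% and 17.7%) and 5 were lower in hepatic Ly6Clow macrophages (against 22.8%). Irf4, a factor that acts in B cells and dendritic cells, fell from 99.0 to 30.7 RPM in splenic Ly6Chi macrophages (-1.55 ± 0.12, adjusted p 1.07e-05) and from 45.9 to 8.09 RPM in hepatic Ly6Clow macrophages (-2.40 ± 0.24, adjusted p 0.000161). Nfyb, a subunit of NF-Y, rose by 0.68 ± 0.12 in splenic Ly6Chi macrophages (adjusted p 0.00205). Ifngr1, a chain of the receptor for interferon-gamma, which induces Ciita, fell by 1.15 ± 0.18 in splenic Ly6Clow macrophages (adjusted p 0.0108). Prdm1, a repressor of Ciita, fell by 1.92 ± 0.34 in hepatic Ly6Chi macrophages (adjusted p 0.006). Rfx5, the RFX subunit that contacts the X box, was not called in any of the 4 populations (between 0.15 and 0.50).

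Endosomal proteases and their inhibitors mostly did not pass, except in hepatic Ly6Clow macrophages, where 6 of 12 were higher and 1 was lower (list median 0.70), against 20.2% and 22.5% of all genes. Ctsd, the aspartic protease cathepsin D, rose there from 1327 to 6511 RPM (2.24 ± 0.27, adjusted p 0.000391), and Cst3, the inhibitor cystatin C, fell by 0.81 ± 0.26 (adjusted p 0.0343). In the other 3 populations at most 1 of 12 was called in either direction: Ctse fell by 1.04 ± 0.14 in splenic Ly6Chi and Ctsh rose by 0.62 ± 0.11 in splenic Ly6Clow macrophages. Ctss, the protease that cleaves the invariant chain, was not called in any population (between -0.37 and -0.11), but fell by 0.84 ± 0.20 in hepatic Ly6Chi macrophages without replicate 1 (adjusted p 0.00848). Of 10 trafficking genes, 3 were higher and 4 lower in hepatic Ly6Clow macrophages, against the same 20.2% and 22.5%. March8, a ubiquitin ligase of class II, rose by 2.31 ± 0.31 there and by 1.16 ± 0.19 in splenic Ly6Clow macrophages (adjusted p 0.00066 and 0.0119), and the tetraspanin Cd9 fell by 2.93 ± 0.22 and 1.82 ± 0.30 in the same populations. In splenic Ly6Chi macrophages 1 of 10 was higher, Cd63 (1.69 ± 0.26), and 1 lower, Trem2 (-0.88 ± 0.24), and in hepatic Ly6Chi macrophages 2 were higher and 2 lower, led by Cd82 (1.24 ± 0.21) and Trem2 (-1.73 ± 0.40). Without Rnaset2-/- replicate 1, 6 proteases were higher and 3 lower, and 2 trafficking genes higher and 4 lower, in hepatic Ly6Clow macrophages (against 19.9% and 22.8% of all genes), and 2 proteases were lower in hepatic Ly6Chi macrophages (against 19.4%). Without replicate 2, 1 protease was higher and 1 trafficking gene was called in each direction in splenic Ly6Clow macrophages (against 2.36% higher and 2.53% lower).

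Co-stimulatory and inhibitory ligands were lower in 3 of 8, 3 of 7, 5 of 9 and 5 of 9 tested genes of the splenic Ly6Chi, splenic Ly6Clow, hepatic Ly6Chi and hepatic Ly6Clow macrophages, with list medians of -0.46, -0.64, -1.17 and -2.17, where 12.5%, 4.3%, 14.9% and 22.5% of all genes were lower. Cd83, which holds class II at the surface by countering its ubiquitination, fell from 428 to 5.29 RPM in hepatic Ly6Chi (-6.30 ± 0.32, adjusted p 8.85e-05), from 872 to 3.24 RPM in hepatic Ly6Clow (-7.56 ± 0.40, adjusted p 1.4e-05) and from 59.6 to 5.40 RPM in splenic Ly6Clow macrophages (-3.14 ± 0.39, adjusted p 0.00363). In splenic Ly6Chi macrophages Cd80, a ligand of CD28, fell by 1.18 ± 0.19 and Cd274, which encodes PD-L1, rose by 1.03 ± 0.14, the 1 ligand called higher among the 4 populations. Cd83 fell in all 3 Rnaset2-/- libraries of both hepatic subsets, replicate 1 included, with SDs of 1.02 and 0.741 RPM. The list as a whole was higher in replicate 1, with sums of 1118, 440 and 488 RPM in Ly6Chi (984 to 1372 RPM in wild-type) and 611, 320 and 308 RPM in Ly6Clow macrophages (988 to 2099 RPM in wild-type). Without replicate 1, 8 of 9 and 7 of 9 ligands were lower in the hepatic Ly6Chi and Ly6Clow macrophages, against 19.4% and 22.8% of all genes, and without splenic Ly6Clow replicate 2 there were 3 of 7, against 2.53%.

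MHC class I presentation genes were counted in the same way. None of 17 was called in either splenic subset, 2 were lower in hepatic Ly6Chi and 1 was higher and 1 lower in hepatic Ly6Clow macrophages, with list medians between 0.07 and 0.22. The shares of all genes called in either direction were 22.2% in splenic Ly6Chi, 8.35% in splenic Ly6Clow, 30.6% in hepatic Ly6Chi and 42.7% in hepatic Ly6Clow macrophages. B2m, the light chain of class I, fell by 1.13 ± 0.24 (adjusted p 0.00598) and Psmb10, a subunit of the immunoproteasome, rose by 1.03 ± 0.20 (adjusted p 0.00465) in hepatic Ly6Clow macrophages, and Canx, the chaperone calnexin, fell by 0.98 ± 0.19 in hepatic Ly6Chi macrophages (adjusted p 0.00828). Nlrc5, the class I counterpart of Ciita, was not called in any population with all libraries (between -0.70 and 0.14). Replicate 1 stood apart here too: in hepatic Ly6Clow macrophages the list summed to 22506, 15157 and 14395 RPM in Rnaset2-/- libraries, against 19050 to 21613 RPM in wild-type. Without replicate 1, 4 of 17 were lower and 1 higher in hepatic Ly6Clow macrophages (against 22.8% and 19.9%), where Nlrc5 fell by 1.5 ± 0.18 (adjusted p 0.000253), and 4 were lower in hepatic Ly6Chi macrophages (against 19.4%). None was called in splenic Ly6Clow macrophages without replicate 2.

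H2-Eb2, a class II beta gene beside H2-Eb1, moved in the same directions as H2-O. It was the only gene that passed the filter out of 6 listed as other class II region genes, 4 of which were measured. It measured 5.33, 8.43 and 1.61 RPM in wild-type and 33.5, 21.5 and 48.1 RPM in Rnaset2-/- hepatic Ly6Chi macrophages (2.37 ± 0.48, adjusted p 0.00981). In hepatic Ly6Clow macrophages it measured 34.3, 13.3 and 15.6 RPM against 3.0, 0.856 and 2.53 RPM and fell by 2.80 ± 0.41 (adjusted p 0.00112). In splenic Ly6Chi macrophages it measured 9.64, 9.02 and 8.33 RPM against 2.60, 1.81 and 2.99 RPM and fell by 1.45 ± 0.18 (adjusted p 0.000186). In splenic Ly6Clow macrophages it was not called (-1.36 ± 0.56, adjusted p 0.144), but was lower without replicate 2 (-1.92 ± 0.29, adjusted p 0.0148). Without replicate 1 it differed by 2.29 ± 0.48 in hepatic Ly6Chi and fell by 3.0 ± 0.43 in hepatic Ly6Clow macrophages. Its groups did not overlap in the 3 populations where it was called.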

How the data were processed

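RNA of sorted macrophages had been amplified with an Ion AmpliSeq panel that targets 1 stretch of each mouse gene, and libraries had been sequenced on the Ion Proton. The authors had obtained gene counts from Torrent Suite by its AmpliSeqRNA plug-in. The labels name mm10 as the build. RPM, reads scaled to a common total per library, are the values the authors deposited, in a single table. Its values gave back whole reads (100% of them within 0.1 reads), which allowed count tests as an alternative. The genes of RNase T2 and of Ly6C, and some genes of the lists, were not analysed here, and some items are not reported here.

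From the table, values were scaled by relative log expression and compared in R 4.3.3 with limma 3.58.1 (eBayes with trend, two-sided) on log2(value + 1), over genes that reached 1 RPM in 3 or more libraries of the comparison. Each comparison was fitted on the libraries of its own groups, and interactions on those of 4 groups. A fold change on this scale understates the change of low genes. Adjusted p-values (Benjamini-Hochberg) cover all tested genes, and a call needed >1.5-fold and an adjusted p below 0.05. The median difference of all genes was near 0 after scaling. Printed levels are RPM as deposited, their intervals would cover counting error only, and 3 reads were taken as the floor. The steps were tested on simulated data.

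Alternatives were DESeq2 1.42.0 and edgeR 4.0.16 on recovered reads, RPM as deposited, an added value of 0.1, no filter, a fit of all libraries, a replicate block, and leaving out each library. A share of all genes belongs to the fit it is printed beside, and is not given for every alternative. Leaving out both Rnaset2-/- hepatic replicates 1, and for patterns over group means also Rnaset2-/- splenic Ly6Clow replicate 2, was chosen after seeing the data. Over the 4 genotype comparisons in the order splenic Ly6Chi, splenic Ly6Clow, hepatic Ly6Chi and hepatic Ly6Clow, limma called 2311, 860, 3351 and 4620 genes, edgeR 2391, 908, 3232 and 4497, and DESeq2 2413, 1600, 3783 and 4698.

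Replicate numbers come from the labels. Over 9226 genes, same-numbered libraries deviated together (r of every pair over 0.1) between Rnaset2-/- hepatic Ly6Clow and Ly6Chi macrophages (0.247 to 0.52), between Rnaset2-/- hepatic Ly6Clow macrophages and KCs (0.126 to 0.383) and between wild-type hepatic and splenic Ly6Clow macrophages (0.113 to 0.422). The last 2 of these are between different genotypes or organs, and the pairing is a hint from the data.

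The members and gene lists were chosen with earlier results of these data known. All 10 members were named in every comparison. From each pathway list, the called gene with the largest rise and that with the largest fall per genotype comparison were named, as were the 10 genes most like the chains by r. Rfx5, Ctss, Nlrc5, Hspa1a and Nr4a1 were added after their values were seen. Positions come from GENCODE vM21 by symbol, and promoters, found for 7 of the 10 members, from RefSeq.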

Additional observations from a re-analysis of the deposited data

Results flagged for a closer look

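Over the 10 members in each of the 2 groups of 4 libraries, which makes 20 tests on shared libraries, 1 had a library far from the others: H2-Ob in replicate 2 of the Rnaset2-/- splenic Ly6Clow macrophages (25.5 RPM, against 9.16 to 10.2 RPM), whose gap to its nearest neighbour was 0.934 of the range of the group, above Dixon's critical value for 4 samples. Chance gives about 1 in 20 such flags where tests are independent, and these share their libraries.

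The effect of genotype differed between organs or subsets by a test of the interaction itself for these genes. Between liver and spleen in Ly6Chi macrophages the interaction was 4.28 for H2-Ob, 3.70 for H2-Oa, 3.43 for H2-DMb2 and 2.11 for H2-Eb1. That of H2-Eb1 was 1.24 without Rnaset2-/- hepatic replicate 1, and DESeq2 called 3 members here. Between liver and spleen in Ly6Clow macrophages it was -2.61 for H2-Oa, -1.81 for H2-DMb2 and -1.77 for H2-Ob. Between Ly6Clow and Ly6Chi macrophages it was 1.78 for H2-Ob in the spleen, and -5.69 for H2-Oa, -4.20 for H2-Ob and -4.11 for H2-DMb2 in the liver. Sex differed together with genotype in the liver and with organ in Rnaset2-/- Ly6Chi macrophages, and its part cannot be told apart.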

How the results depend on the processing

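Of 84 called differences of members, under 1187 alternative settings, 1063 kept their direction and stayed past the threshold, 123 kept their direction but no longer passed, and 1 reversed. Of 106 differences not called, under 1623 settings, 117 passed and 79 changed sign. The cause of these changes was not tested. The 10 higher members of wild-type hepatic Ly6Clow macrophages against splenic ones were called with every library left out in turn.

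The number of members called moved by more than 1.5 times as follows. In the fit of all libraries it was 3 in place of 6 for genotype in splenic Ly6Chi macrophages, 0 in place of 4 for wild-type splenic subsets, 3 in place of 5 for wild-type hepatic subsets, 10 in place of 3 for Rnaset2-/- hepatic subsets, 5 in place of 9 for organ in wild-type Ly6Chi macrophages, 1 in place of 6 for KCs against Ly6Clow and 3 in place of 5 against Ly6Chi macrophages, 9 in place of 3 for Rnaset2-/- hepatic Ly6Clow macrophages against KCs, and 5 and 8 in place of 3 for the interactions with organ in Ly6Clow macrophages and with subset in the liver. For genotype in splenic Ly6Clow macrophages, where Cd74 was the 1 member called, it was 2 with an added value of 0.1, 0 without a filter, 3 with DESeq2 and 2 with edgeR. For genotype in hepatic Ly6Clow macrophages it was 3 in place of 6 without a filter, with DESeq2 and with edgeR. It was 1 without a filter in place of 3 for Rnaset2-/- hepatic subsets, 1 in place of 0 with DESeq2 for organ in Rnaset2-/- Ly6Clow macrophages, 2 in place of 1 with DESeq2 for the interaction in the spleen, and 8 in place of 3 with RPM as deposited for Rnaset2-/- hepatic Ly6Clow macrophages against KCs. Without both Rnaset2-/- hepatic replicates 1, chosen after seeing the data, it was 10 in place of 3 for the hepatic subsets and for their interaction.

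With each library left out in turn, it ranged from 0 to 6 for genotype in splenic Ly6Clow (6 without Rnaset2-/- replicate 2), 3 to 6 in hepatic Ly6Chi and 3 to 10 in hepatic Ly6Clow macrophages (6 and 10 without Rnaset2-/- replicate 1), 0 to 8 for Rnaset2-/- hepatic subsets, 5 to 8 and 0 to 1 for organ in Rnaset2-/- Ly6Chi and Ly6Clow macrophages, 3 to 10 for Rnaset2-/- hepatic Ly6Clow macrophages against KCs, 2 to 10 for the interaction with organ in Ly6Clow macrophages, 1 to 3 for that in the spleen and 3 to 8 for that in the liver.

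With the replicate block the Rnaset2-/- hepatic subsets gave 10 members in place of 3. In comparisons whose numbers did not pair the libraries, the block gave 0 members in place of 1 for genotype in splenic Ly6Clow macrophages, with H2-DMb2 at 0.040, and 8 in place of 6 in hepatic Ly6Clow macrophages.

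Members that reversed in sign were mostly those not called. For genotype in hepatic Ly6Chi macrophages, with libraries left out in turn, H2-Aa ranged from -0.79 to 0.55, H2-Ab1 from -0.25 to 0.97, H2-DMb1 from -0.30 to 0.85, Ciita from -0.15 to 0.84 and Cd74 from -1.02 to 0.027, each lowest without Rnaset2-/- replicate 1, and Cd74 was 0.013 with DESeq2 and 0.030 with edgeR. In splenic Ly6Chi macrophages H2-DMb1 ranged from -0.00804 to 0.29, and in splenic Ly6Clow macrophages H2-DMb1 ranged from -0.28 to 0.088 and H2-DMb2 from -0.44 to 0.040. H2-Aa in KCs against hepatic Ly6Chi macrophages was 0.091 with RPM as deposited.

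With RPM as deposited, the share of called genes that were higher moved by over 10 percentage points in further comparisons: from 44% to 31.2% for genotype in splenic Ly6Chi macrophages, from 41.1% to 29.8% for wild-type splenic subsets, from 52% to 65.4% and from 51.4% to 38.8% for wild-type and Rnaset2-/- hepatic subsets, from 45.2% to 25.4% for organ in wild-type Ly6Chi macrophages, from 42.5% to 15.9% for Rnaset2-/- hepatic Ly6Clow macrophages against KCs, and from 52.4% to 78.9%, 56.7% to 71.8% and 49.2% to 27.9% for the interactions with organ in Ly6Chi macrophages and with subset in the spleen and in the liver. Depth did not limit the members, since each exceeded the level of 3 reads in every library.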
